A study of Mus musculus with 30 samples.

Results

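The mitochondrial genome of the mouse carries 37 annotated genes, and their transcripts were described across 30 cell lines as 37 of the 55401 genes in the deposited count table. They were chosen as all genes whose symbol starts with mt-, which are the 2 ribosomal RNAs (rRNAs) of the mitochondrial ribosome, 22 transfer RNAs (tRNAs) and 13 protein genes. The lines were derived from an Eµ-Myc; p19ARF -/- cell line, a murine B-lymphoid lymphoma line in which the Myc oncogene is driven by the immunoglobulin heavy chain enhancer and the tumour suppressor p19ARF is absent. All 3 groups carry both alterations. The 17 paclitaxel resistant lines (Pac, named by the plate well) had been kept through weekly rounds of the microtubule drug paclitaxel followed by drug-free recovery. The 12 DMSO control lines went through the same rounds with the solvent DMSO, and the parental line received neither. All lines descend from that 1 parental line, so each line is a separately evolved culture and was measured in 1 library.

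Mitochondrial DNA is transcribed from both strands into long precursors. Most of the rRNAs and mRNAs in these precursors are separated by tRNAs, and enzymes that cut at the tRNA ends release the mature transcripts. The rRNAs and most of the mRNAs then receive tails of A at their 3′ ends. The proteins encoded are subunits of respiratory complexes I, III and IV and of ATP synthase, which are completed by a larger number of subunits from nuclear genes. All enzymes that transcribe, process and translate mitochondrial RNA are nuclear-encoded as well.

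Library totals ran from 480919 counts in Pac C1 to 6739131 in DMSO 11. The libraries were made by priming on poly(A) and counting fragments near the 3′ end of transcripts. The B-lymphoid markers Cd79a, Cd79b, Pax5, Ebf1, Ptprc and Ighm were counted in all 30 libraries and Ms4a1 in 29. Of the lists for other cell types, Cd3e and Cd4 (T cells), Adgre1 and S100a8 (myeloid) and Col3a1 and Dcn (stroma) had no count in any library, while Cd3d was counted in 28 libraries (279 counts), Cd3g in 9 (93 counts), and Itgam and Pecam1 in all 30 (1368 and 5100 counts). Summed levels reached at most 21.1 counts scaled to the library total (CPM) for the T cell list, 49.3 CPM for the myeloid list and 83.1 CPM for the stromal list. By their nuclear genes, the library labelled DMSO 12 lay nearest to Pac H4 and the library labelled Pac H9 nearest to DMSO 2. Pac A6, Pac C1 and Pac D7 also lay nearest to a DMSO library by Euclidean distance, and by Spearman correlation so did Pac A6, Pac C1 and Pac E1, while DMSO 11 lay nearest to Pac D4. Whether labels were exchanged or shifted along the series cannot be told from these values, and every group value and every value given for a named line rests on the labels. Group differences are also given without DMSO 12 and Pac H9.

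Mitochondrial transcripts held 4749666 counts over the 30 libraries, and 4 genes made up 92.3% of this sum. These were mt-Rnr2 (16S rRNA of the mitochondrial ribosome, 30.8%), mt-Cytb (cytochrome b of complex III, 21.1%), mt-Rnr1 (12S rRNA, 20.9%) and mt-Nd1 (a complex I subunit, 19.5%). The complex I subunit genes mt-Nd4, mt-Nd2, mt-Nd5 and mt-Nd6 held 3.60%, 1.81%, 0.808% and 0.566%, and mt-Co1, the catalytic subunit of complex IV, held 0.837%. The sum is weighted to 3 libraries, as DMSO 11, Pac C11 and Pac D4 held 62.4% of all mt-Rnr1 counts and 50.02% of those of mt-Rnr2. In the median library the order was another, with 28.5% of mitochondrial counts in mt-Cytb, 28.3% in mt-Nd1, 21.9% in mt-Rnr2 and 9.40% in mt-Rnr1. mt-Cytb was the largest gene in 12 libraries, mt-Rnr2 in 10 and mt-Nd1 in 8. These 2 rRNAs and 7 protein genes were counted in every library. Per kilobase of gene, the median library had 9290 CPM of mt-Nd1, 7261 of mt-Cytb, 4567 of mt-Rnr2 and 3650 of mt-Rnr1. The next was mt-Nd4 with 1293 CPM per kilobase, and mt-Nd5 was lowest of the 9 with 155. A fragment near the 3′ end can be counted once per transcript whatever its length, so these values per kilobase are no direct ratio of transcript numbers.

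The other 6 protein genes were almost empty and together held 7 counts. mt-Co2 (a complex IV subunit, chrM:7013-7696), mt-Atp8 (ATP synthase, chrM:7766-7969), mt-Nd3 (complex I, chrM:9459-9806) and mt-Nd4l (complex I, chrM:9877-10173) had no count in any of the 30 libraries. mt-Atp6 (ATP synthase, chrM:7927-8607) had 1 count, in Pac B2, and mt-Co3 (complex IV, chrM:8607-9390) had 6 counts, 1 each in DMSO 3, DMSO 5, DMSO 8, Pac C11, Pac D4 and Pac D7. A count of 0 allows a level of up to 0.445 CPM in the largest library and 6.24 CPM in the smallest, by the limit of 3 counts and for counting error only. The limit holds only where reads of a gene would be counted for it. Whether reads that also match a nuclear copy were counted is not known. On the genome these 6 genes are neighbours, between mt-Co1 and mt-Nd4, which had 39742 and 171092 counts.

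**Figure D1:**
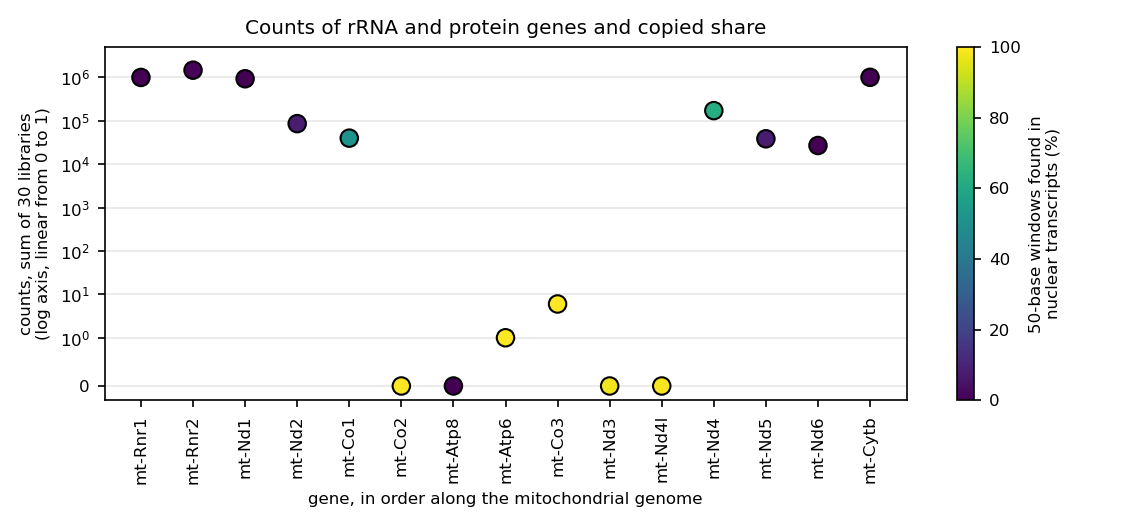
Counts of the 2 rRNA and 13 protein genes, summed over the 30 libraries (log axis, linear from 0 to 1), in their order along the mitochondrial genome, with the colour giving the percentage of 50-base windows that also occur in a nuclear transcript. The 6 neighbouring genes from mt-Co2 to mt-Nd4l held 0 to 6 counts each, while the other 9 held at least 26874.

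The same stretch of the mitochondrial genome has copies in the nuclear genome that are annotated as pseudogenes. A run of 7 pseudogenes on the minus strand of chromosome 1 (chr1:24611535-24616197, GRCm38, 4663 bases from the first to the last gene) covers mt-Co1 in part, mt-Co2, mt-Atp6, mt-Co3, mt-Nd3, mt-Nd4l and the first part of mt-Nd4. Each gene was divided into all of its 50-base windows, the length of the sequenced read, and each window was looked up in the annotated nuclear transcripts on both strands. Identical windows were found for 100% of mt-Co2, 99.9% of mt-Co3, 99.5% of mt-Atp6, 98.8% of mt-Nd4l and 98.0% of mt-Nd3. No window of mt-Rnr1, mt-Nd1, mt-Nd6 or mt-Cytb was found, and 1.04% of those of mt-Rnr2. mt-Atp8 had none either and yet no count. Its place in the block falls in the gap between Gm10925 and Gm28661 (chr1:24614652-24614884), where no gene is annotated, and nuclear sequence outside annotated transcripts was not searched.

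The stretch below shows how complete the copying is. It is taken 10 bases before the 3′ end of mt-Co2 (bases 595 to 674 of the gene, chrM:7607-7686, plus strand) and from the pseudogene Gm28661 (chr1:24614892-24614971, minus strand), both read 5′ to 3′ from the GENCODE M21 transcripts of GRCm38.
mt-Co2: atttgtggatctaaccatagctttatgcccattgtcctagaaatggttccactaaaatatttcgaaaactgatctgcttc
Gm28661: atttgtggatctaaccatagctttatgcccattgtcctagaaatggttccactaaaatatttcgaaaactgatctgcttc
The letters are the same throughout, so a read from this stretch matches both places equally well. In mt-Nd4 the copy ends within the gene. The last copied window ends at base 876 of 1378, and none of the windows in the last 300 bases was found in a nuclear transcript. The stretch around that edge (bases 837 to 916, chrM:11003-11082, plus strand) is given with the copied part in lower case and the bases past it in capitals.
mt-Nd4: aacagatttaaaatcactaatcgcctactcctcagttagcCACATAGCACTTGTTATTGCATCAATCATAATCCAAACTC
mt-Nd4 had 171092 counts although 62.2% of its windows were copied. mt-Co1 had 51.1% of its windows copied and all of those in its last 300 bases, and had 39742 counts. How reads with several equal matches were treated in the counting is not given in the sources used here, and the part of the copies in the empty genes was not tested.

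The pseudogenes themselves held few counts. The 15 nuclear genes that share a window with a mitochondrial gene had 5188 counts in all, beside 4749666 for the mitochondrial genes. Gm28437, the copy of mt-Co3 (chr1:24613189-24613971), had 2624 counts with 11 to 183 per library and a median of 75.5. Gm28438, the copy of mt-Nd3 (chr1:24612775-24613119), had 1525 counts with 7 to 165 per library and a median of 40.5. Both were counted in all 30 libraries, whereas the mitochondrial originals held 6 and 0 counts. Gm13341 on chromosome 2, a partial copy of mt-Co2, had 340 counts, Gm10925, the copy of mt-Atp6, had 284, and Gm28661 had 138. Reads of Gm28437 cannot be told apart from reads of mt-Co3 by their sequence, since all 734 of its windows occur in mt-Co3.

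The 22 tRNA genes held 3049 counts, 0.0642% of the mitochondrial counts. mt-Tp (the tRNA for proline, 1680 counts), mt-Tq (for glutamine, 636) and mt-Tt (for threonine, 311) held most of them, and only mt-Tp and mt-Tq had a median of at least 10 counts per library. mt-Tw, mt-Ty, mt-Ts1, mt-Td, mt-Tk, mt-Tg and mt-Th had no count in any library. By strand, the 28 genes on the plus strand held 99.4% of the mitochondrial counts and the 9 on the minus strand 0.618%, most of which were the 26874 counts of mt-Nd6, the only protein gene on that strand. Whether the counting used strand is not stated, and the 3′ end of mt-Nd6 (chrM:13552-14070) overlaps that of mt-Nd5 (chrM:11742-13565) on the opposite strand. Reads in that overlap cannot be assigned to either gene without strand.

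The ends of the gene models also show where tails belong to the message. mt-Cytb, mt-Nd4 and mt-Co3 have 1 base past their last whole codon, and the T at that place becomes a complete stop codon only when the poly(A) tail is added. The last 60 bases of mt-Cytb (chrM:15229-15288) and mt-Nd4 (chrM:11485-11544) are given with that base in capitals.
mt-Cytb: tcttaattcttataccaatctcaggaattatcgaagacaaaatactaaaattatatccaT
mt-Nd4: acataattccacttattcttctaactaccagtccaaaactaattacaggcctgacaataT
Inside genes, runs of A are further places at which an oligo-dT primer could pair. The longest run in mt-Rnr2 had 7 bases and the gene held 4 runs of 6 or more, while the longest in mt-Rnr1 had 5. Among the protein genes, mt-Nd2 had a run of 8 bases and 3 of 6 or more, and mt-Co1, mt-Nd4 and mt-Nd5 had runs of 7. These 4 genes had lower counts than either rRNA. mt-Cytb had no run above 5. The longest runs of the 2 rRNAs are shown with 30 bases on either side and the run in capitals (chrM:1458-1524 for mt-Rnr2 and chrM:675-739 for mt-Rnr1).
mt-Rnr2: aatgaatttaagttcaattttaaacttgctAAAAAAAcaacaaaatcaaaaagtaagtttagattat
mt-Rnr1: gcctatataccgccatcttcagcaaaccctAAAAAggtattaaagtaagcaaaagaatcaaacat
Where along these genes the reads lay cannot be read from gene counts, and priming inside the genes was not tested.

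The mitochondrial share of counts differed 9.25-fold between libraries. Among the DMSO control lines the share was 2.82% in DMSO 1, 3.51% in DMSO 2, 4.63% in DMSO 3, 2.36% in DMSO 4, 3.88% in DMSO 5 and 4.24% in DMSO 6. It was 4.04% in DMSO 7, 7.39% in DMSO 8, 4.74% in DMSO 9, 2.18% in DMSO 10, 12.4% in DMSO 11 and 3.84% in DMSO 12. Of the 12 control lines, 10 were below 5%, and DMSO 8 and DMSO 11 stood above them. Among the paclitaxel resistant lines the share was 2.49% in Pac A6, 4.35% in Pac B2, 3.78% in Pac C1, 2.06% in Pac C3, 10.1% in Pac C11, 11.9% in Pac D4, 3.20% in Pac D7, 2.68% in Pac D10 and 1.34% in Pac E1. It was 2.07% in Pac E2, 2.29% in Pac F10, 3.84% in Pac G9, 2.96% in Pac H1, 2.90% in Pac H3, 2.36% in Pac H4, 1.81% in Pac H8 and 4.41% in Pac H9. Of these 17 lines, 15 were below 5%, and Pac C11 and Pac D4 stood above them. The parental line had 3.91%. Counting error was small beside these differences, with a 95% Wilson interval of 3.73 to 3.84% in Pac C1, the smallest library. Counts are shares of a library, so more mitochondrial RNA per cell and less of other RNA cannot be told apart.

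**Figure D2:**
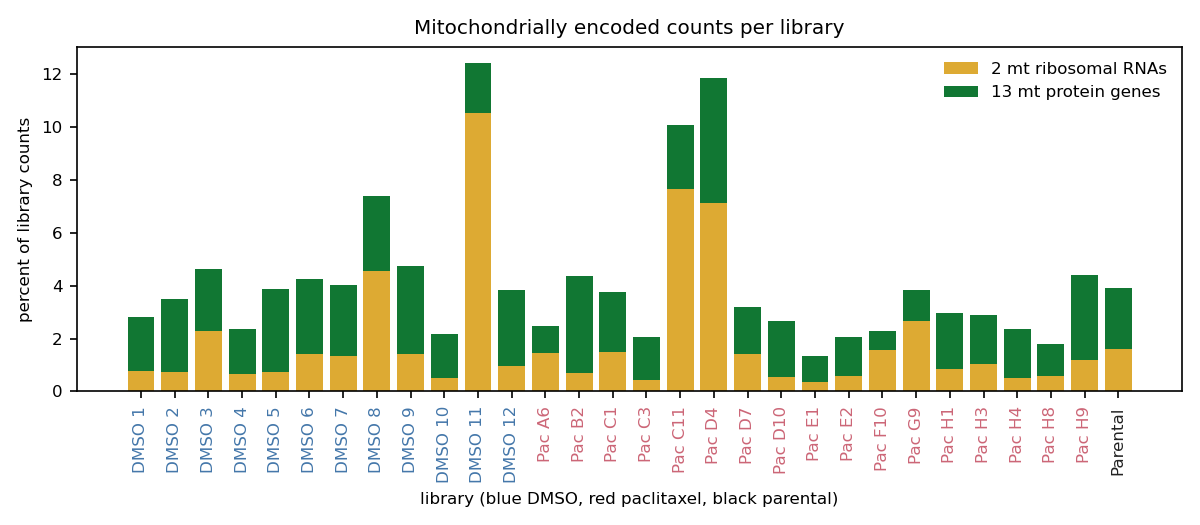
Percent of each library's counts in mitochondrial genes, as bars from 0 split into the 2 rRNAs and the 13 protein genes, 1 bar per library, with tRNAs too few to be drawn. DMSO 11, Pac C11 and Pac D4 reached 12.4%, 10.1% and 11.9%, and 26 of the other libraries lay below 5%.

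The groups overlapped in this share. The mean was 4.67% ± 2.79 (SD, n = 12) in the DMSO control lines and 3.79% ± 2.86 (SD, n = 17) in the paclitaxel resistant lines, a difference of -0.878 percentage points beside a pooled SD of 2.83, and 13 of the 17 paclitaxel resistant lines were within the range of the controls. The medians were 3.96% and 2.90%. The difference of the means was -0.992 without DMSO 12 and Pac H9. It rested on a few libraries, being -0.174 without DMSO 11, -1.84 without Pac C11 and Pac D4, and -1.13 without all 3. No test was run on this sum.

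The libraries with a high share were high mainly in rRNA. In DMSO 11 the 2 rRNAs made up 84.7% of the mitochondrial counts, in Pac C11 75.8%, in DMSO 8 61.5% and in Pac D4 59.97%. The rRNA part was also large in Pac G9 (69.2%), Pac F10 (67.9%) and Pac A6 (58.5%), whose shares of all counts were between 2.29% and 3.84%. It was lowest in Pac B2 (15.8%) and DMSO 5 (19.04%), and was 41.1% in the parental line. The rRNA part was 36.4% ± 19.5 (SD, n = 12) in the DMSO control lines and 39.6% ± 19.4 (SD, n = 17) in the paclitaxel resistant lines. The difference of 3.26 percentage points was small beside that spread, was 3.03 without DMSO 12 and Pac H9, 7.66 without DMSO 11, and -0.507 without Pac C11 and Pac D4.

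The protein genes, taken alone, were more even among the controls. They summed to 25086 CPM ± 5643 (SD, n = 12) in the DMSO control lines, with a lowest value of 16800, a median of 27306 and a highest of 33316. In the paclitaxel resistant lines they summed to 20173 CPM ± 10436 (SD, n = 17), with 7359, 18454 and 47473. Here 7 of the 17 paclitaxel resistant lines lay below every control line and 2 above, Pac D4 and Pac B2. DMSO 11, the highest library in rRNA at 105203 CPM, had only 18920 CPM of protein gene counts. Without DMSO 12 and Pac H9 the means were 24760 ± 5799 (SD, n = 11) and 19430 ± 10302 (SD, n = 16). Without DMSO 11, Pac C11 and Pac D4 they lay further apart, at 25647 (n = 11) and 18068 (n = 15).

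The balance within each class also differed between libraries, and no test was run on these ratios. The ratio of mt-Rnr2 to mt-Rnr1 counts ran from 1.11 in DMSO 11 to 5.21 in DMSO 10, with a mean of 2.63 ± 1.07 (SD, n = 12) in the controls and 2.10 ± 0.784 (SD, n = 17) in the paclitaxel resistant lines. All 17 paclitaxel resistant lines lay within the range of the controls, and the difference of -0.526 was smaller than the pooled SD of 0.910. The ratio of mt-Nd1 to mt-Cytb ran from 0.388 in Pac D4 to 1.98 in Pac C3, with 1.14 ± 0.271 (SD, n = 12) and 0.976 ± 0.456 (SD, n = 17). Without DMSO 12 and Pac H9 the means were 2.60 and 2.14 for the first ratio and 1.17 and 0.987 for the second. Control lines spanned 0.710 to 1.56 in that ratio, and 6 of the 17 paclitaxel resistant lines lay outside. In Pac C3 mt-Co1 was 5.55% of the mitochondrial counts and in Pac D7 4.07%, where the control lines had 0.359% to 1.17%.

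**Figure D3:**
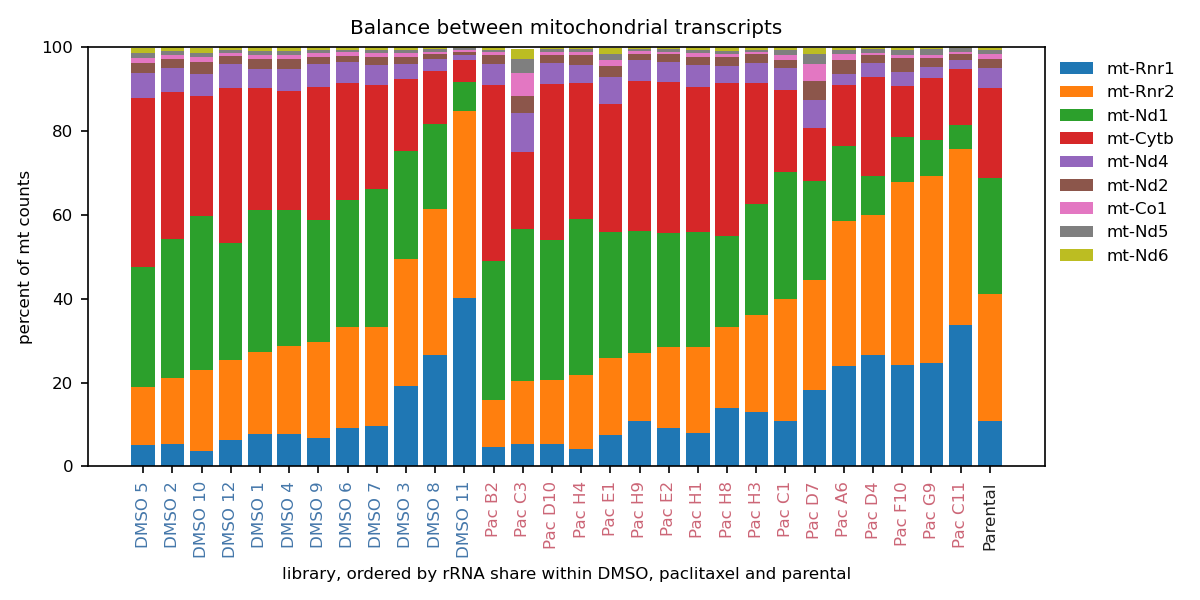
Percent of mitochondrial counts held by the 2 rRNAs and the 7 protein genes counted in every library, as stacked bars per library, ordered by rRNA part within the DMSO, paclitaxel and parental groups. The rRNA part runs from 19.04% to 84.7% among controls and from 15.8% to 75.8% among paclitaxel resistant lines, and mt-Co1 is widest in Pac C3 and Pac D7.

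The libraries rich in mitochondrial rRNA were often rich in nuclear rRNA. CT010467.1, an annotated nuclear rRNA gene on chromosome 17 (chr17:39846353-39848827), held nearly all counts of the annotated nuclear rRNA genes. Together these genes took 4.29% of the counts in DMSO 11, 2.81% in DMSO 8, 2.17% in Pac D4 and 1.47% in Pac C11, against 0.0714% in Pac D10, the lowest. Of the 10 libraries highest in mitochondrial rRNA, 8 were also among the 10 highest in nuclear rRNA. The parental library was highest in nuclear rRNA, at 7.46%, with a mitochondrial rRNA share of 1.61%. The part of rRNA capture in the mitochondrial share was not tested.

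**Figure D4:**
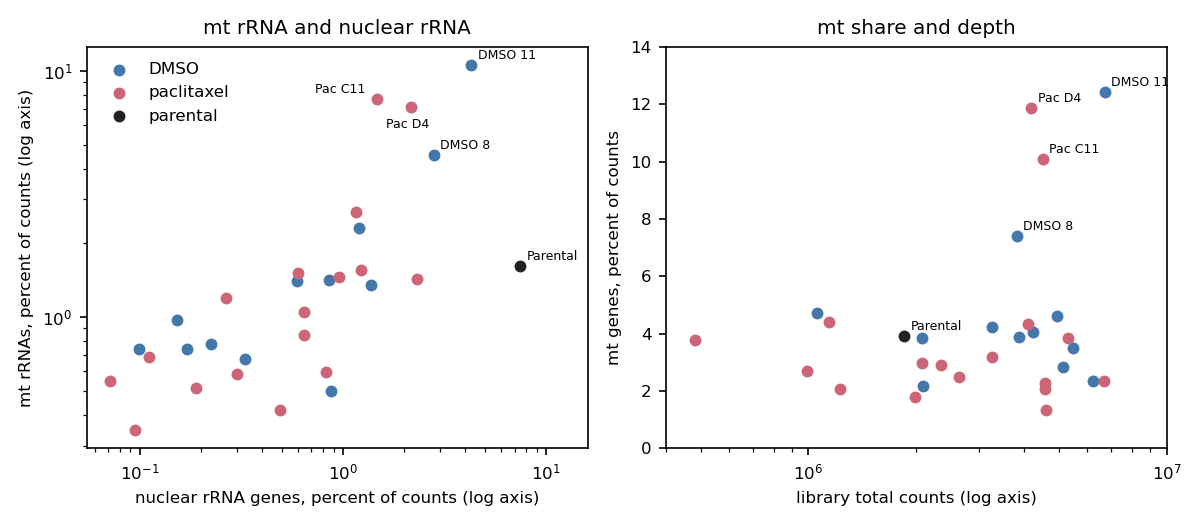
Left, mitochondrial rRNAs against nuclear rRNA genes, each as percent of library counts on log axes. Right, mitochondrial share (percent) against library total (log axis), with 1 point per library. DMSO 11, DMSO 8, Pac C11 and Pac D4 are the 4 highest in mitochondrial rRNA and have at least 1.47% nuclear rRNA, and the 4 libraries above 5% mitochondrial counts have at least 3820220 counts.

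Shares overlapped widely across depths. The 7 libraries under 2000000 counts had mitochondrial shares of 1.81 to 4.74% with a median of 3.78%. The 9 with 2000000 to 4000000 had 2.18 to 7.39% with a median of 3.20%, and the 14 above 4000000 had 1.34 to 12.4% with a median of 3.67%. In the edgeR quasi-likelihood fit with treatment and log10 library total as terms, none of the 12 tested mitochondrial genes was called for depth at an adjusted p (Benjamini-Hochberg) under 0.01, nor was any other gene (0% of 9445). At an unadjusted p under 0.05 it was 2 of 12, beside 22.3% of all genes tested. These were mt-Rnr1, with a coefficient of 2.41 on the log2 scale per 10-fold of counts (SE 0.943, edgeR adjusted p = 0.140), and mt-Tt, at -1.72 (SE 0.717, edgeR adjusted p = 0.160). Without DMSO 11, Pac C11 and Pac D4 the mt-Rnr1 coefficient was 0.38 (SE 0.766, edgeR adjusted p = 0.879). The lowest p among the 12 genes in that fit were those of mt-Nd4, at -0.88 (SE 0.336, edgeR adjusted p = 0.409), and mt-Tt, at -1.61 (SE 0.772, edgeR adjusted p = 0.471).

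Which mitochondrial transcripts differed between paclitaxel resistant and DMSO control lines was tested gene by gene. Of the 37 genes, 12 passed the filter on low counts, the 2 rRNAs, 7 protein genes and 3 tRNAs. Of the remaining 25 genes, 11 had no count at all and 14 had 429 counts together. None of the 12 was called at an adjusted p under 0.01 by the edgeR quasi-likelihood test, where 2.2% of the 9445 genes tested were called in either direction, 0.995% higher and 1.21% lower. edgeR's likelihood ratio test, which called 4.74% of all genes, and DESeq2, which called 5.2%, also called 0 of the 12. At an unadjusted p under 0.05, 3 of the 12 were lower in paclitaxel resistant lines and 0 higher (mt-Nd1, mt-Nd6 and mt-Tp), beside 10.2% of all genes tested that were lower and 14.9% higher. Fold changes were below 0 for 9 of the 12, with a median log2 fold change of -0.38, beside 43.4% of all genes tested and a median of 0.07. Without scaling factors, and by DESeq2, 8 of the 12 were below 0. Without DMSO 11, Pac C11 and Pac D4 it was 11 of the 12, with a median of -0.54. In that fit 5 of the 12 were lower at an unadjusted p under 0.05 (mt-Rnr2, mt-Nd1, mt-Nd4, mt-Nd6 and mt-Cytb), beside 9.19% of all genes tested. None was called, where 2.11% of all genes were called and 1.04% were called lower. Among the 719 genes with an average log2 CPM of 8 or more, 71.3% were below 0, with a median of -0.12.

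mt-Nd1 gave the lowest p of these genes. Its level, as CPM normalized with TMM factors, had a lowest value of 7748, a median of 12096 and a highest of 16699 in the DMSO control lines, and 1978, 7846 and 14853 in the paclitaxel resistant lines. The ranges overlapped, with 15 of 17 paclitaxel resistant lines below the control median and 8 below every control line. The means were 11790 ± 2853 (SD, n = 12) and 7474 ± 3635 (SD, n = 17). The log2 fold change was -0.66 (SE 0.221, edgeR adjusted p = 0.0621), and the adjusted p ran from 0.0198, with the library total as covariate, to 0.0650 over the alternatives. Without DMSO 12 and Pac H9 it was -0.74 (edgeR adjusted p = 0.0413), in a fit that called 3.36% of genes.

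mt-Nd6, the complex I gene on the minus strand, had 229, 275 and 590 normalized CPM as lowest, median and highest control values, and 106, 177 and 510 in the paclitaxel resistant lines. Of the 17 paclitaxel resistant lines 11 were below every control line, and none was above. The log2 fold change was -0.46 (SE 0.213, edgeR adjusted p = 0.173). mt-Tp, on the same strand, had 12.4, 18.3 and 45.4 normalized CPM in controls and 3.00, 9.21 and 38.7 in paclitaxel resistant lines. Its log2 fold change was -0.72 (SE 0.295, edgeR adjusted p = 0.125), with 10 of 17 lines below the control range. mt-Tt had the largest log2 difference in size, -0.77 (SE 0.399, edgeR adjusted p = 0.224), at a low level of 2.34, 4.11 and 7.42 normalized CPM in controls and 0, 1.72 and 12.6 in paclitaxel resistant lines.

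The other complex I genes and the genes of complexes III and IV lay closer to no difference in the fit on all libraries. mt-Nd4 had 1203, 2070 and 2781 normalized CPM in controls and 596, 1447 and 3396 in paclitaxel resistant lines (log2 fold change -0.33, SE 0.217, edgeR adjusted p = 0.343). mt-Cytb had 6539, 10592 and 17204 in controls and 2251, 7882 and 25508 in paclitaxel resistant lines (log2 fold change -0.27, SE 0.279, edgeR adjusted p = 0.574). In both, the highest library was Pac D4. Without DMSO 11, Pac C11 and Pac D4 the log2 fold change was -0.51 for mt-Nd4 (edgeR adjusted p = 0.116) and -0.53 for mt-Cytb (edgeR adjusted p = 0.191), near the -0.57 of mt-Nd6 in that fit (edgeR adjusted p = 0.0863). mt-Nd2 had 556, 806 and 1011 in controls and 380, 673 and 2062 in paclitaxel resistant lines, mt-Nd5 had 204, 311 and 582 against 119, 213 and 1009, and mt-Co1 had 215, 412 and 581 against 140, 269 and 1207. Their log2 fold changes were -0.01, 0.05 and 0.05 (SE 0.199, 0.300 and 0.291). In these 3 genes paclitaxel resistant lines lay on both sides of the control range, below it in 4, 6 and 5 lines and above it in 3, 4 and 3.

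The rRNAs varied most among the control lines. mt-Rnr1 had 842, 2974 and 49030 normalized CPM in controls and 1020, 3870 and 30924 in paclitaxel resistant lines, a 58.2-fold range between DMSO 10 and DMSO 11. mt-Rnr2 had 4385, 8873 and 54658 in controls and 2673, 6858 and 38399 in paclitaxel resistant lines. The log2 fold changes were -0.43 (SE 0.575, edgeR adjusted p = 0.671) and -0.45 (SE 0.414, edgeR adjusted p = 0.512), and without Pac C3 and DMSO 11 they were 0.42 and 0.03. DESeq2 gave 0.41 for mt-Rnr1. In edgeR's estimate of variation between libraries mt-Rnr1 stood above all of the 200 genes nearest in level, and mt-Rnr2 above 98% of its neighbours.

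Without DMSO 12 and Pac H9 the other 11 tested genes kept their direction and none was called. The log2 fold changes were then -0.47 for mt-Nd6 (edgeR adjusted p = 0.186), -0.83 for mt-Tp (edgeR adjusted p = 0.0838) and -0.85 for mt-Tt (edgeR adjusted p = 0.200). They were -0.36 for mt-Nd4, -0.30 for mt-Cytb, -0.53 for mt-Rnr1, -0.51 for mt-Rnr2, -0.01 for mt-Nd2, 0.01 for mt-Co1, 0.04 for mt-Nd5 and 0.19 for mt-Tq.

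**Figure D5:**
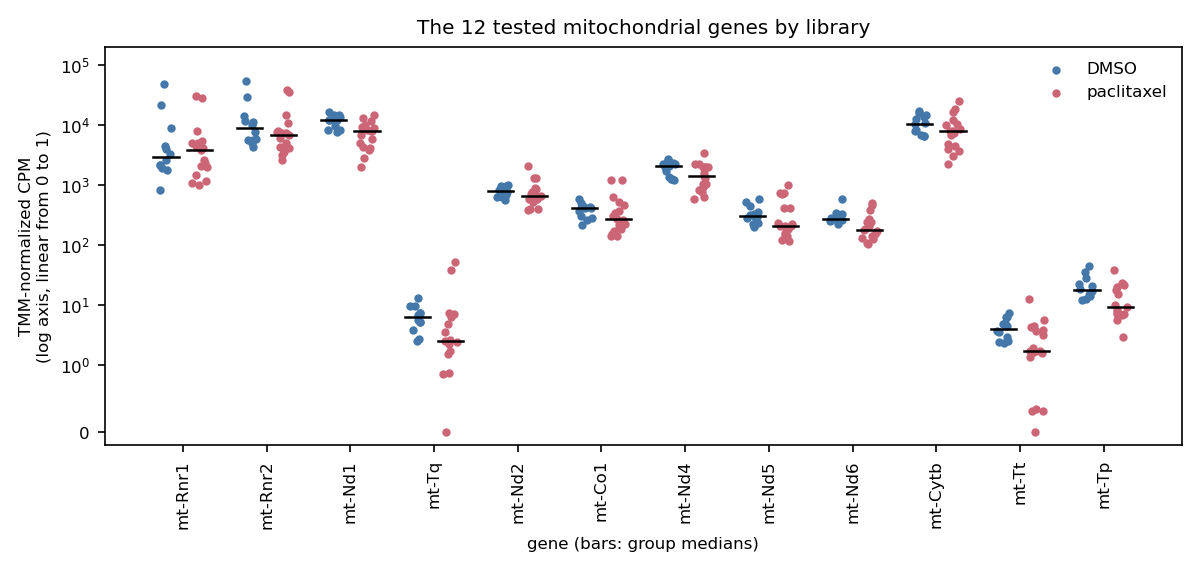
TMM-normalized CPM (log axis, linear from 0 to 1) of the 12 tested mitochondrial genes, 1 point per library, in 12 DMSO control and 17 paclitaxel resistant lines, with bars at the group medians. All 12 genes overlap between groups, the points of the 7 protein genes spread further in the paclitaxel resistant lines, and mt-Rnr1 spans 842 to 49030.

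The paclitaxel resistant lines varied more among themselves. The SD of log2 values was larger in the paclitaxel resistant than in the DMSO control lines for 7 of 7 protein genes and 3 of 3 tRNAs, and smaller for both rRNAs. This was so for 87.2% of all genes tested, so the mitochondrial count of 10 of 12 lay near the background. Single lines stood at the ends of several genes. Pac D4 was the highest library for mt-Nd2, mt-Nd4, mt-Nd5 and mt-Cytb, while Pac F10 was the lowest for mt-Nd1, mt-Nd6, mt-Cytb and mt-Tp and Pac E2 for mt-Nd2, mt-Co1 and mt-Nd5. Pac C3 and Pac D7 were the highest pair for mt-Co1, at 1200 and 1207 normalized CPM, and for mt-Tq, at 52.4 and 38.1, where controls reached 13.02. mt-Tq as a whole had 2.54, 6.31 and 13.02 normalized CPM in controls and 0, 2.59 and 52.4 in paclitaxel resistant lines (log2 fold change 0.24, SE 0.546, edgeR adjusted p = 0.818), and without Pac C3 and DMSO 11 its log2 fold change was -0.38.

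The nuclear genes that work with these transcripts were read from the same fit. Of 76 tested nuclear subunits of the respiratory complexes and ATP synthase, 5 fell and 0 rose, with a median log2 fold change of -0.18, beside 1.21% of all genes tested that fell and medians of 0.07 over all genes and -0.12 over the 719 abundant ones. Without DMSO 12 and Pac H9 it was 4 and 0, and without DMSO 11, Pac C11 and Pac D4 it was 5 and 0, with the same 5 genes. The CPM of the list summed to a median of 56428 in the DMSO control lines and 52583 in the paclitaxel resistant lines. It was lowest in Pac C11 (34612), Pac G9 (35573), DMSO 11 (39963), Pac D4 (40187) and Pac F10 (42081), 5 libraries named above for their large rRNA part. The summed CPM of the 4 RNAs Malat1, Neat1, Kcnq1ot1 and Meg3, which are mostly kept in the nucleus, was highest in Pac C11 (1768) and Pac F10 (1655), where the group medians were 858 and 591. The rest of those 5 libraries had less, with 961 in DMSO 11, 923 in Pac G9 and 865 in Pac D4. Libraries outside the 5 were above these values, among them Pac D7 (1291), DMSO 8 (1275) and DMSO 7 (1243). The part of RNA quality in the fall was not tested. Cox8a and Cox5a, subunits of complex IV beside the mitochondrially encoded ones, fell from 1905 ± 394 (SD, n = 12) to 926 ± 393 (SD, n = 17) and from 188 ± 38.8 (SD, n = 12) to 94.5 ± 33.6 (SD, n = 17) normalized CPM. Their log2 fold changes were -1.04 (SE 0.184, edgeR adjusted p = 0.000603) and -0.99 (SE 0.169, edgeR adjusted p = 0.000393). Atp5g3, of the membrane ring of ATP synthase, fell by 0.68 on the log2 scale (edgeR adjusted p = 0.00331) and Ndufb8, of complex I, by 0.73 (edgeR adjusted p = 0.00789). The fifth, the complex III subunit Uqcrc1, fell by 0.79 (edgeR adjusted p = 0.00855) and is named because it was called. With library sizes and factors taken without the mitochondrial genes, Ndufb8 and Uqcrc1 lost the call (edgeR adjusted p = 0.0102 and 0.0107), at log2 fold changes of -0.74 and -0.81. Without DMSO 12 and Pac H9 Uqcrc1 lost it (edgeR adjusted p = 0.0150), at -0.78. Of their mitochondrially encoded partners, mt-Cytb in complex III and mt-Co1 in complex IV are described above, while mt-Atp6 and mt-Atp8 held 1 and 0 counts.

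Genes that make and process mitochondrial RNA were mostly below the threshold. Of 31 tested genes of RNA processing and stability 1 rose and 0 fell, where 0.995% of all genes tested rose and 1.21% fell. It was Ptcd1, a pentatricopeptide repeat protein that binds mitochondrial RNA, which rose from 6.39 ± 2.18 (SD, n = 12) to 12.97 ± 5.07 (SD, n = 17) normalized CPM (log2 fold change 1.02, SE 0.236, edgeR adjusted p = 0.00679). Without DMSO 11, Pac C11 and Pac D4 its log2 fold change was 0.97 and the call was lost (edgeR adjusted p = 0.0158). Of 11 transcription genes and 14 genes of mitochondrial DNA replication the edgeR quasi-likelihood test called 0. At an unadjusted p under 0.05 there were 2 higher and 2 lower of the first and 3 higher and 1 lower of the second, beside 14.9% higher and 10.2% lower of all genes tested, and DESeq2 and the likelihood ratio test called 0 of the first and each 1, higher, of the second. Of 77 mitochondrial ribosomal protein genes, whose products assemble on mt-Rnr1 and mt-Rnr2, the quasi-likelihood test called 0, with 4 higher and 12 lower at an unadjusted p under 0.05. In the fit on all libraries Mrpl16 had the lowest p among them, with a log2 fold change of -0.61 (SE 0.157, edgeR adjusted p = 0.0146). The likelihood ratio test, with 4.74% of all genes called, called 1 higher and 2 lower of the 77, and DESeq2, with 5.2%, called 2 higher and 2 lower of the 76 it could test. Without DMSO 12 and Pac H9, where 1.65% of all genes tested were called higher and 1.7% lower, the quasi-likelihood test called 2 higher and 1 lower of the 77, 1 higher of the replication genes and 0 of the transcription genes. Without DMSO 11, Pac C11 and Pac D4 it called 0 of all 4 lists. In the fit on all libraries the median log2 fold changes of these 4 lists lay between -0.10 and 0.12.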

How the data were processed

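RNA from 30 cell lines was measured as 3′-end digital gene expression, 1 library per line. The authors primed cDNA with an oligo-dT primer carrying a barcode and a molecular identifier, in 2 subpools of 15, sequenced pairs of 26 and 50 bases, mapped 1 read of the pair with STAR 2.5.1b (GRCm38) and deposited its gene counts unnormalized. Which line was in which subpool, whether identifiers were collapsed and how multiply mapping reads were counted are not given in the sources used here. Without collapsing of identifiers, several counts can stem from 1 molecule. Intervals and floors cover counting error only.

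Symbols, positions and sequences came from GENCODE M21 on GRCm38, where the study names M25. A symbol was found for 55141 identifiers. Groups follow the labels. Tests used edgeR 4.0.16 in R 4.3.3 (TMM, filterByExpr, quasi-likelihood F test, Benjamini-Hochberg over all 9445 genes tested, threshold 0.01) on 12 DMSO control and 17 paclitaxel resistant libraries, with the parental library outside the fit. Sums over mitochondrial genes were described without a test. Nuclear copies were counted as exact 50-base windows in annotated transcripts.

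All mt- genes are accounted for, with group values for those with a median of at least 10 counts. Of each nuclear list up to 4 genes with the lowest p could be named, and of the nuclear copies those with a median of at least 10 counts. Other copies, Uqcrc1 and mt-Tt were named after their values were seen. The members and lists were chosen with earlier results of these data known. Alternatives were the likelihood ratio test, DESeq2 1.42.0, other scalings, filter and threshold, a depth covariate, thinning to 480919 counts and libraries left out. Leaving out DMSO 11, Pac C11 and Pac D4, alone or together, was chosen after seeing the data. The fit was tested on simulated data. Figures were drawn with matplotlib 3.10.9 in Python 3.11.15.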

Additional observations from a re-analysis of the deposited data

How the results depend on the processing

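No mitochondrial gene was called at an adjusted p under 0.01 in any alternative. At 0.05 none was called in the fit as reported, but mt-Nd1 had 0.0198 with the library total as covariate, 0.0359 with the likelihood ratio test, 0.0377 with DESeq2, 0.0413 without DMSO 12 and Pac H9 and 0.0463 without Pac C3 and DMSO 11, and in the last mt-Nd6 had 0.0465 and mt-Tp 0.0367. mt-Nd1, mt-Nd4, mt-Nd6, mt-Cytb, mt-Tt and mt-Tp stayed below 0 in all alternatives in which they were tested. The thinned fit could test 9 mitochondrial genes. Directions of log2 fold changes that were not called turned as follows, and the cause was not tested. Without Pac C3 and DMSO 11, mt-Rnr1 was 0.42, mt-Rnr2 0.0347, mt-Tq -0.38 and mt-Co1 -0.14. With the library total as covariate, mt-Rnr1 was 0.0355, mt-Tq -0.19, mt-Nd2 0.0232 and mt-Co1 -0.0510. DESeq2 gave 0.41 for mt-Rnr1, no scaling factors gave 0.13 for mt-Nd2 and thinning gave 0.0710 for mt-Nd2. Without DMSO 11, Pac C11 and Pac D4, mt-Co1 was -0.0021 and mt-Nd5 -0.14. Of the genes of the nuclear lists 6 were called, 1 higher and 5 lower. Without DMSO 12 and Pac H9 it was 9, 4 higher and 5 lower, and in the thinned fit 7. It was 4 with library sizes and factors taken without the mitochondrial genes and 5 without DMSO 11, Pac C11 and Pac D4. The likelihood ratio test called 14, DESeq2 16, and an adjusted p under 0.05 gave 22. Over all genes 208 were called, 94 higher and 114 lower, against 448 with the likelihood ratio test, 491 with DESeq2, 321 without DMSO 12 and Pac H9 and 338 without Pac C3 and DMSO 11. Without scaling factors it was 191 higher and 88 lower, as the median log2 fold change of all genes moved from 0.07 to 0.19. The differences in mitochondrial share and rRNA part moved by less than 1 pooled SD (2.83 and 19.5) in every alternative. That SD is larger than the differences themselves (-0.878 and 3.26 percentage points), so the bound does not show them to be stable. Without Pac C11 and Pac D4 they were -1.84 and -0.507. Without Pac C3 and DMSO 11 they were -0.0654 and 8.86. No paired analysis was possible because the DMSO control lines carry numbers and the paclitaxel resistant lines plate wells.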
